A study of Mus with 6 samples.

Results

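The expression of 10 genes of fatty acid synthesis, elongation and desaturation was followed in mouse pancreatic tumors from obese and lean hosts. The genes are Srebf1, Acly, Acaca, Fasn, Me1, Elovl6, Scd1, Scd2, Fads1 and Fads2, chosen by Ensembl gene ID for their place in the pathway. All 10 are among the 15646 genes listed, and all 10 are among the 14348 genes that passed the filter on low counts.

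The tumors came from KPC1199 cells, a mouse pancreatic ductal adenocarcinoma line, implanted orthotopically, that is, into the pancreas. Both groups carried the same tumor line and differed in the host: genetically obese ob/ob mice, in which the appetite hormone leptin is not functional, or wild-type (WT) lean mice. Total RNA was depleted of ribosomal RNA and sequenced, giving 3 libraries from obese hosts (numbered 1, 3 and 4 in their titles) and 3 from lean hosts (1, 2 and 3). The labels used here give no age, sex, strain background, diet or time after implantation, and do not say whether each library is a separate mouse, so each p-value reflects spread between libraries that may be partly technical. A tumor sample holds implanted cancer cells and host cells together. Every gene level below is therefore a mixture, in which fewer cells of a type and less RNA per cell cannot be told apart.

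Cells make saturated fat from acetyl-CoA. ATP citrate lyase (Acly) releases acetyl-CoA from citrate, acetyl-CoA carboxylase alpha (Acaca) turns it into malonyl-CoA, and fatty acid synthase (Fasn) condenses these units into palmitate with NADPH, part of which malic enzyme (Me1) provides. Elovl6 lengthens palmitate to stearate, and the stearoyl-CoA desaturases Scd1 and Scd2 insert a double bond to give monounsaturated fatty acids such as oleate. Fads2 and Fads1 desaturate dietary essential fatty acids on the way to arachidonic acid and other long polyunsaturated products. Srebf1 encodes the SREBP transcription factors that switch on most of these genes when insulin is high. The pathway is most active in liver and fat, and many tumors run it as well.

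In tumors of obese hosts the RNA of 2 of the 10 genes was higher: the desaturase Scd1, at 1.72 times its lean level, and the elongase Elovl6, at 1.57 times. The other 8 did not pass the test. Among them, Scd2, which catalyses the same step as Scd1, was fitted at 1.12 times and Me1, the source of NADPH, at 1.23 times its lean level, and the fitted differences of Acly, Acaca, Fasn and Srebf1 were at most 6.07% in size. Whether the steps of the pathway differ from each other in their change was not tested. None of the 10 genes was called lower. The 2 of 10 called compares with 20.8% of all genes tested (edgeR quasi-likelihood test, adjusted p under 0.05 over all genes), so the share called in the pathway was close to that of the transcriptome. Calls of higher expression alone covered 10.3% of all genes, or 1474 higher and 1517 lower. Without scaling beyond the total counts, the split was 1797 higher and 1170 lower.

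Library totals were between 7122533 and 8521244 counts, with a mean of 7994945 in the lean and 8171627 in the obese group, and their ranges overlapped. Each of the 10 genes had at least 352 counts in every library and up to 11368, so none was near the limit of detection. Their SE of the log2 fold change lay between 0.09 and 0.17, with a median of 0.11 against 0.19 over all genes tested. Levels are given as CPM, counts scaled to library size and adjusted by TMM factors, which correct for differences in library composition. CPM does not correct for gene length, so levels are compared between groups and not between genes. On the common build GRCm38.p6 of RefSeq, the genes lie on 4 chromosomes, and their positions are given below with their values.

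**Figure D1:**
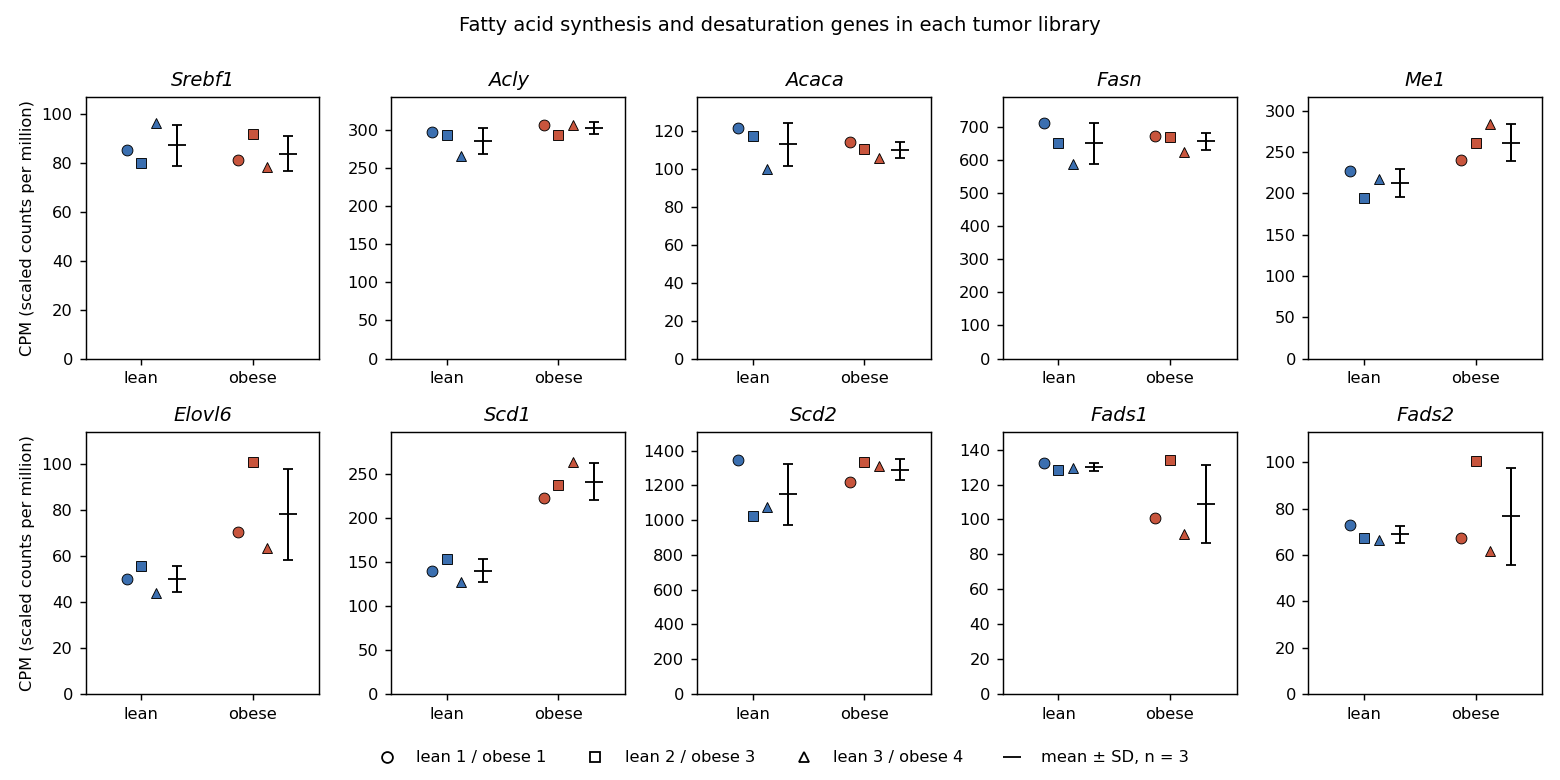
Each panel shows 1 gene, with CPM on a vertical axis that starts at 0; points are single libraries (blue lean, red obese) and the bar beside them is the mean ± SD (n = 3). Scd1, Elovl6 and Me1 show no overlap between groups, and obese 3 lies above the other obese libraries for Elovl6, Fads1 and Fads2.

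Srebf1, the regulator (ENSMUSG00000020538.15; chromosome 11, 60199084 to 60224186), was measured at 85.1, 79.9 and 96.2 CPM in lean 1, 2 and 3 and at 81.1, 91.9 and 78.1 CPM in obese 1, 3 and 4. The groups overlapped, with the highest value in a lean library and the lowest in an obese one. The means were 87.1 ± 8.33 CPM in lean and 83.7 ± 7.25 CPM in obese hosts (SD, n = 3 each). The log2 fold change was -0.058, with a 95% interval of -0.31 to 0.20 (edgeR adjusted p = 0.751). The gene has more than 1 promoter and gives more than 1 SREBP isoform, which counts per gene do not separate, and the activity of SREBP depends on cleavage of the protein, which RNA does not show.

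Acly, the supplier of acetyl-CoA (ENSMUSG00000020917.17; chromosome 11, 100476352 to 100528000), stood at 297, 294 and 266 CPM in the lean libraries and at 308, 294 and 307 CPM in the obese ones. Obese values were higher in 8 of the 9 lean and obese pairs, but by little. The fitted change was 6.07%, with a 95% interval from -7.81% to 22.0% (edgeR adjusted p = 0.54). Acaca, which makes malonyl-CoA (ENSMUSG00000020532.18; chromosome 11, 84129635 to 84401651), was at 121, 117 and 99.7 CPM in lean and 114, 110.1 and 105 CPM in obese hosts. The obese values all fell inside the lean range. Its change was fitted at -2.59%, with a 95% interval from -17.3% to 14.8% (edgeR adjusted p = 0.831).

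Fasn, the synthase itself (ENSMUSG00000025153.9; chromosome 11, 120805958 to 120825166), had 713, 651 and 587 CPM in lean 1, 2 and 3. In obese 1, 3 and 4 it had 674, 669 and 625 CPM, again inside the lean range. With 650.4 ± 62.8 CPM in lean and 656 ± 26.7 CPM in obese hosts (SD, n = 3 each), its fitted log2 difference was 0.012 ± 0.10 (SE; edgeR adjusted p = 0.944). Its 95% interval, a fold of 0.864 to 1.18, leaves out a change of the size fitted for Scd1 or Elovl6. The spread was smaller in the obese group for each of these 3 enzymes: the coefficient of variation of Fasn was 9.66% in lean and 4.07% in obese hosts, that of Acaca 10.1% and 3.88%, and that of Acly 6.11% and 2.53%. With 3 libraries a group, that difference in spread was not tested.

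Me1, the cytosolic malic enzyme that yields NADPH (ENSMUSG00000032418.15; chromosome 9, 86581363 to 86695914), was at 227, 194 and 217 CPM in lean and at 239.7, 261 and 284 CPM in obese hosts. Each obese library was above each lean one. The means were 213 ± 16.7 and 261 ± 22.0 CPM (SD, n = 3 each), which gave a fold of 1.23 with a 95% interval of 1.05 to 1.44. After adjustment over all genes this did not pass the threshold (edgeR adjusted p = 0.0648, unadjusted 0.0158). It did pass with total counts only (log2 0.36, edgeR adjusted p = 0.0321) and with upper-quartile factors (log2 0.33, edgeR adjusted p = 0.0469), while with the replicate number as a block the log2 fold change was 0.17 (edgeR adjusted p = 0.417).

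Elovl6, which makes stearate from palmitate (ENSMUSG00000041220.10; chromosome 3, 129532386 to 129638495), had 423, 392 and 352 counts in lean 1, 2 and 3, or 50.2, 55.7 and 44.1 CPM. In obese 1, 3 and 4 it had 600, 824 and 526 counts, or 70.3, 101 and 63.5 CPM. The groups did not overlap, and obese 3 was far above the other obese libraries. The mean rose from 50.0 ± 5.81 CPM to 78.2 ± 19.9 CPM (SD, n = 3 each). On the log2 scale the rise was 0.65 ± 0.17 (SE; edgeR adjusted p = 0.0243), or 1.57-fold (95% interval 1.20 to 2.03).

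The size of the Elovl6 change leaned on obese 3. Without that library the log2 fold change was 0.43 (SE 0.14), and the call held narrowly (edgeR adjusted p = 0.0444), with 20.8% of all genes called. Leaving out any lean library ended the call, with log2 fold changes of 0.65, 0.73 and 0.56 and edgeR adjusted p = 0.0555, 0.0561 and 0.0934 without lean 1, 2 and 3. In those same fits the share of all genes called was 17.8%, 7.99% and 10.4%.

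Scd1, the stearoyl-CoA desaturase that dominates in mouse liver and fat (ENSMUSG00000037071.3; chromosome 19, 44394450 to 44407709), had 1175, 1084 and 1016 counts in lean 1, 2 and 3 and 1901, 1942 and 2187 counts in obese 1, 3 and 4. Scaled, these were 139, 154 and 127 CPM against 223, 238 and 264 CPM. The lowest obese library stood well above the highest lean one. The mean rose from 140.2 ± 13.4 to 241 ± 20.8 CPM (SD, n = 3 each). In log2 units the rise was 0.78 ± 0.11 (SE; edgeR adjusted p = 0.00227), or 1.72-fold (95% interval 1.46 to 2.04). By p-value it ranked 120th of the 14348 genes tested, and by fold change in the direction of obese hosts 1147th. Scd1 was called higher in all 15 alternative fits, including each that left out 1 library, with log2 fold changes of 0.71 to 0.85 and adjusted p-values of 2.18e-07 (DESeq2) to 0.0142 (edgeR without lean 3).

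Scd2, a desaturase of the same reaction known for its role in brain and in development (ENSMUSG00000025203.6; chromosome 19, 44293676 to 44306864), was at 1349.5, 1023 and 1078 CPM in lean and at 1221, 1336 and 1314 CPM in obese hosts. Lean 1 had the highest value of all 6, so the groups overlapped. From 1150.1 ± 175 to 1290.5 ± 61.4 CPM (SD, n = 3 each), the fitted log2 difference was 0.17 with a 95% interval of -0.10 to 0.43 (edgeR adjusted p = 0.34). Without lean 1 it was 0.29 and remained short of the threshold (edgeR adjusted p = 0.0886).

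**Figure D2:**
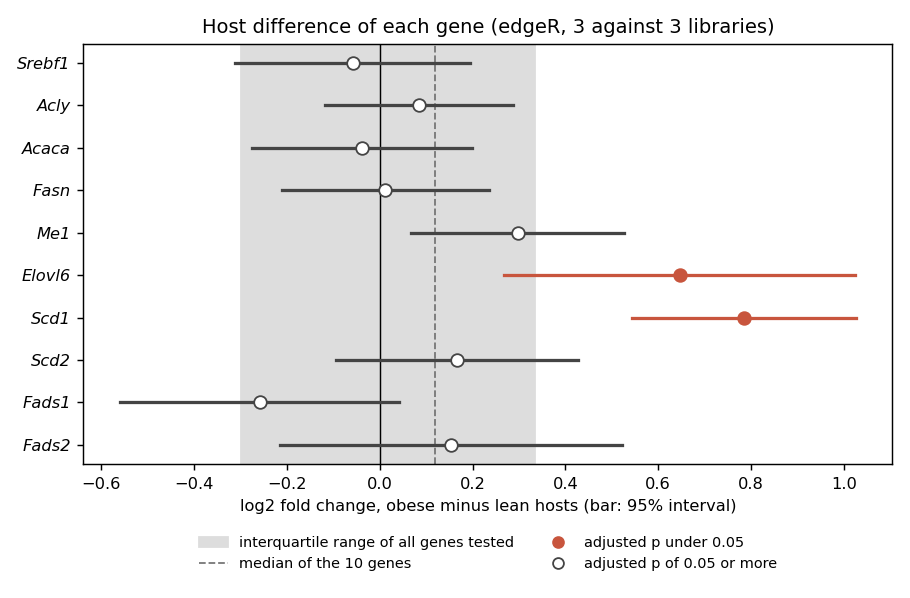
Points are log2 fold changes (obese minus lean hosts) with 95% intervals, filled red where the adjusted p was under 0.05; the grey band spans the interquartile range of all genes tested, -0.30 to 0.33, and the dashed line is the median of the 10 genes, 0.12. Scd1 and Elovl6 lie beyond the band, and the other 8 genes lie inside it.

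Scd1 and Scd2 are neighbours, 87.6 kb apart on chromosome 19 with Scd4 between them, and catalyse the same step. Their balance within a library does not depend on scaling. Scd1 made up 9.37%, 13.1% and 10.6% of the summed Scd1 and Scd2 counts in lean 1, 2 and 3, and 15.4%, 15.1% and 16.7% in obese 1, 3 and 4. Each obese tumor thus had a greater Scd1 share than each lean tumor. Scd1 enters this share and was called by itself, so the share is no separate result. Among all genes tested, 40.3% showed no overlap in CPM in either direction, and the rate for such shares was not computed. The mean share was 11.0% ± 1.90 in lean and 15.8% ± 0.858 in obese hosts (SD, n = 3 each), a difference of 4.75 percentage points (exact permutation test, two-sided, p = 0.1, the smallest that 3 against 3 libraries allow; 0.1 after adjustment over the 2 shares compared). The genes are similar in sequence, and how the authors' counting treated reads that match both was not stated. The share also depends on gene length and is no ratio of molecules.

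Fads1, which performs the later desaturation on the way to arachidonic acid (ENSMUSG00000010663.5; chromosome 19, 10182877 to 10196874), was at 133, 129 and 129 CPM in the lean libraries, the tightest lean group of the 10 genes. In obese 1, 3 and 4 it was at 101, 134 and 91.7 CPM. Obese 1 and 4 were below every lean library, and obese 3 was above every one. The log2 fold change was -0.26 ± 0.14 (SE; edgeR adjusted p = 0.198). Without obese 3 it was -0.43 ± 0.11 (SE), and Fads1 was then called lower (edgeR adjusted p = 0.0184). That fit, which leaves out the 1 obese library above the lean range, called 20.8% of 14720 genes, 1598 of them lower.

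Fads2, which performs the first and limiting desaturation of the same route (ENSMUSG00000024665.8; chromosome 19, 10062765 to 10101503), was at 73.0, 67.2 and 66.6 CPM in lean and at 67.5, 101 and 61.9 CPM in obese hosts. Obese 3 again stood alone at the top, with obese 1 inside and obese 4 below the lean range. The log2 fold change was 0.15 with a 95% interval of -0.22 to 0.52 (edgeR adjusted p = 0.546), and -0.085 without obese 3 (edgeR adjusted p = 0.654).

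Neither gene passed the test with all 6 libraries, and the Fads1 share of their counts was lower in every obese library than in every lean one. Fads1 and Fads2 lie 81.4 kb apart. Of their summed counts, Fads1 made up 64.5%, 65.7% and 66.0% in lean 1, 2 and 3 and 59.8%, 57.1% and 59.7% in obese 1, 3 and 4. The groups did not overlap, and obese 3 stood with the other obese libraries in this measure. The mean share was 65.4% ± 0.796 in lean and 58.9% ± 1.52 in obese hosts (SD, n = 3 each), a difference of -6.50 percentage points (exact permutation test, two-sided, p = 0.1, the smallest possible, and 0.1 after adjustment over the 2 shares). Without obese 3 the difference was -5.62 points. How often other gene pairs show no overlap in such a share was not computed. For single genes in CPM, 40.3% of all those tested showed no overlap in either direction.

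**Figure D3:**
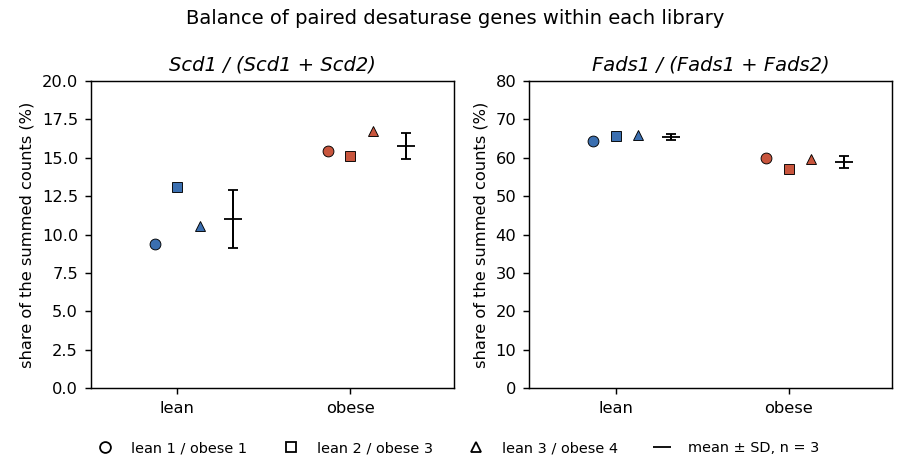
The left panel shows Scd1 as a percentage of Scd1 plus Scd2 counts and the right panel Fads1 as a percentage of Fads1 plus Fads2 counts, per library (blue lean, red obese), with mean ± SD (n = 3) and both axes from 0. The obese libraries lie above the lean ones on the left (15.1% or more against 13.1% or less) and below them on the right (59.8% or less against 64.5% or more).

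The obese tumors were not uniform in this pathway. Relative to the mean of its group on the log2 scale, obese 3 was 0.42 above for Fads2, 0.40 above for Elovl6 and 0.32 above for Fads1. For Fasn, Acaca, Acly, Scd1, Scd2 and Me1 the same library deviated by at most 0.05 in size, and for Srebf1 it was 0.14 above. The high values of obese 3 were thus limited, among these genes, to Elovl6 and the Fads pair and, to a lesser degree, Srebf1. For Fads2, Elovl6 and Fads1, obese 4 deviated by -0.28, -0.27 and -0.23 and obese 1 by -0.15, -0.12 and -0.094. Deviations from a group mean cancel out within the group. With obese 3 high, obese 1 and 4 together had to lie below the mean, so this is no separate observation. Obese 4 was the lowest of its group for 6 of the 10 genes. Among the lean tumors, lean 1 was the highest of its group for 7 of the 10 genes and lean 3 the lowest for 6, with median deviations of 0.07 and -0.09.

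As a group, 7 of the 10 genes had a fitted change above 0 and 3 below. Their median log2 fold change was 0.12, beside 0.01 over all genes tested, whose interquartile range ran from -0.30 to 0.33. The typical size of a change, regardless of direction, was 0.16 in the pathway and 0.32 over all genes (medians of the absolute log2 fold change). This measure also grows with imprecision, and the median SE was 0.11 for the 10 genes against 0.19 over all genes. How much of the difference in size comes from that was not tested. The groups did not overlap, with obese higher, for 3 of the 10 genes (Scd1, Elovl6 and Me1), against 20.3% of all genes tested with that pattern and 40.3% with either direction. Lower values without overlap were found for 0 of the 10 and for 20% of all genes.

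Summed over the 10 genes, the tumors held 3188, 2765 and 2711 CPM in lean 1, 2 and 3 and 3098, 3335 and 3195 CPM in obese 1, 3 and 4. The groups overlapped through lean 1 (exact permutation test, two-sided, p = 0.2). Without Scd2, the sums were 1838, 1742 and 1633 CPM in lean and 1877, 1999 and 1880.4 CPM in obese tumors, which did not overlap (exact permutation test, two-sided, p = 0.1, the smallest possible). This smaller sum omits Scd2, for which lean 1 had the highest value of all libraries. It holds Scd1, Elovl6 and Me1, which did not overlap singly, so it is no separate result. All 10 genes together took between 0.26% and 0.35% of the counts of a library. Scd2 supplied 37.0% to 42.3% and Fasn 19.6% to 23.6% of the counts of all 10, and neither of these passed the test.

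**Figure D4:**
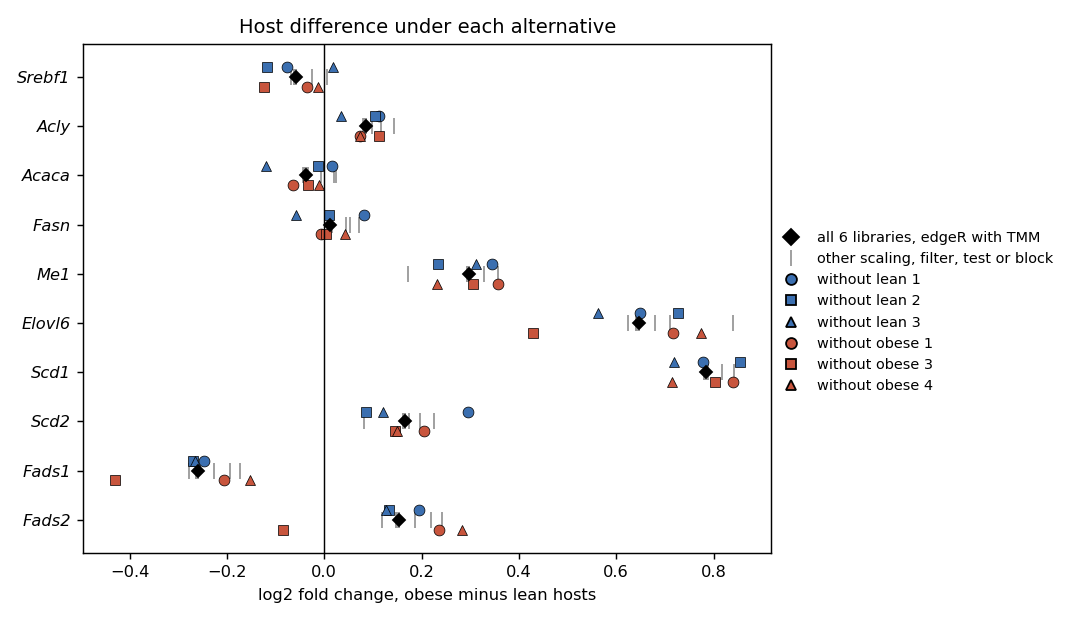
For each gene the black diamond is the log2 fold change (obese minus lean) with all 6 libraries, grey ticks are other scalings, filters, tests and the replicate block, and coloured symbols leave out 1 library. Scd1 stays between 0.71 and 0.85, and Elovl6 ranges from 0.43 to 0.84. The 0.84 is from the replicate block, where only libraries numbered 1 and 3 inform the host difference. The red squares show the shift of Elovl6, Fads1 and Fads2 when obese 3 is left out.

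Fat cells and liver cells express Scd1 and Elovl6 strongly, and the sampled tissue could hold host fat or normal pancreas. Marker lists for fat, liver, acinar, ductal, stromal and immune cells are by symbol and could not be matched to the gene IDs of the table, so their levels are not given here, the tissue label was not checked against markers, and their part in the Scd1 and Elovl6 results was not tested. Within RefSeq's gene spans, Fasn, Scd1 and Fads2 overlap no other listed gene. Elovl6 overlaps Gm35986, Me1 overlaps A330041J22Rik, Acaca overlaps Tada2a, Gm11437 and Gm31074, and Srebf1 overlaps Rai1 and 2 microRNA genes. Acly, Scd2 and Fads1 each overlap 1 microRNA gene. The handling of strand was not stated either, so reads in such overlaps cannot be assigned with certainty.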

How the data were processed

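Raw counts for all 6 libraries were deposited by the authors in a single table, with a versioned Ensembl ID per gene. Per the submitters' processing notes, the tools were CASAVA, STAR and Subread and the build was GRCm38; how each was set, and whether strand was used, was not given in the sources used here. All 6 columns matched a sample title, with 0 left over. The obese group holds the titles that begin with OB, and those beginning with ND were taken, by elimination from the 2 kinds of mice in the design text, as the lean group.

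The test was run in R 4.3.3 with edgeR 4.0.16. The default expression filter (minimum count 10, minimum total 15) kept 14348 genes and removed 1298, which held 0.116% of the counts. TMM factors and the quasi-likelihood F test, two-sided and without covariates, were applied to the whole table, with Benjamini-Hochberg adjustment over all genes tested and a threshold of 0.05. The SE is the log2 fold change divided by the square root of F, and the 95% intervals use the t distribution with the moderated degrees of freedom. For shares and sums per library, groups were set against each other with the exact permutation test, which cannot go below 0.1 here. The fit was also run on simulated counts with known changes, and the outcome of that run is not given here.

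The 10 genes, the lists and the tests were chosen with earlier results of these data known. All 10 genes are named whatever their values. Their symbols came with the list of IDs, since 0 of the 49997 rows of the RefSeq table carry an Ensembl ID. Positions were taken from that table by symbol (10 of 10 found). The rule for other named genes used 16 lists by symbol, of which 0 could be matched, so no other gene of the pathway is described. Alternatives were DESeq2 1.42.0, voom of limma 3.58.1, robust dispersions, scaling by RLE factors, by upper quartiles or by totals alone, omitting the filter or keeping genes with CPM of at least 1 in 3 libraries, a block on replicate number, and omission of 1 library at a time. For the shares, counts summed over a group were an alternative to the mean of the libraries.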

Additional observations from a re-analysis of the deposited data

How the results depend on the processing

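The number of the 10 genes called higher was 2 in the edgeR test and 2 or 3 under the other scalings, filters and tests, and 1 to 2 when 1 library was left out. It was 1 without lean 1, lean 2 or lean 3, where Elovl6 was lost and Scd1 remained. Of all genes tested, 18.6% to 21% were called in either direction under the other scalings, filters and tests. With the replicate block the share was 14.5%, and with 1 library left out it was 7.99% to 20.8%. The number of the 10 genes called lower was 0, or 0 to 1 when 1 library was left out, where the 1 was Fads1 without obese 3. The median log2 fold change of the 10 genes stayed between 0.06 and 0.18 in all 15 alternatives. Small changes that passed no test crossed 0 in some: with total counts only, Acaca was at 0.021 and Srebf1 at 0.0053, and without 1 library the log2 fold change was 0.017 for Acaca (lean 1), -0.058 for Fasn and 0.0185 for Srebf1 (lean 3), -0.0077 for Fasn (obese 1) and -0.085 for Fads2 (obese 3). Without 1 library their full ranges were -0.12 to 0.017 for Acaca, -0.058 to 0.081 for Fasn, -0.12 to 0.0185 for Srebf1 and -0.085 to 0.28 for Fads2. The cause was not tested. The difference in Scd1 share ranged from 3.94 to 5.79 and that in Fads1 share from -6.97 to -5.62 percentage points when 1 library was left out, and with counts summed over each group they were 5.01 and -6.67.

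Only numbers 1 and 3 occur in both groups. The deviations of those like-numbered libraries from their group means correlated at 0.0901 and 0.0744 over all genes tested. Pairs with unlike numbers had correlations from -0.131 to 0.0663. With so few libraries these values cannot decide whether like-numbered libraries share more than a number. In the fit with a replicate block, lean 2 and obese 4 each had a number of their own. Its host difference therefore came from lean 1 and 3 against obese 1 and 3 alone. There 2 genes were called higher, Scd1 (log2 0.79) and Elovl6 (log2 0.84), 0 were called lower, and Acaca was at 0.025. Over all genes, 2087 were called with the block and 2991 without it. The lowest count of any of the 10 genes in a library was 352; how much of the interval width comes from counting and how much from spread between libraries was not tested.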

Other observations

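Set against Fasn within the same library, a ratio that needs no scaling and that was chosen after the values were seen, Scd1 gave 19.6, 23.6 and 21.7 counts per 100 Fasn counts in lean 1, 2 and 3 and 33.1, 35.5 and 42.2 in obese 1, 3 and 4. Elovl6 gave 7.05, 8.55 and 7.50 in lean and 10.4, 15.1 and 10.2 in obese tumors. Acaca followed Fasn most closely, with 17.0, 18.0 and 17.0 in lean and 16.9, 16.5 and 16.9 in obese tumors, a mean of 17.3 ± 0.553 against 16.7 ± 0.239 (SD, n = 3 each). Of the 9 genes compared in this way, these 3 showed no overlap between groups. For each, the exact permutation test (two-sided) gave p = 0.1, the smallest possible, and adjusted p = 0.3 over the 9. The share of all genes without overlap in such a ratio was not computed. In CPM, 40.3% of all genes tested showed no overlap in either direction. The Me1 ratio, at 31.8, 29.8 and 36.9 in lean and 35.6, 39.0 and 45.4 in obese tumors, overlapped through lean 3 and obese 1 (exact permutation test, p = 0.2, adjusted p = 0.45), although Me1 itself did not overlap in CPM.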
